A study of Mus musculus with 6 samples.

Results

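The 10 genes described here encode proteins of neutrophil granules, or accompany them in maturing neutrophils: Mpo, Elane, Prtn3, Ctsg, S100a8, S100a9, Camp, Ngp, Ltf and Lcn2. They were taken by gene symbol from a table of read counts for 11779 genes in 6 libraries of sorted mouse bone marrow stem cells. All 10 were listed, and all 10 were among the 10869 genes tested. The sort gate for long-term hematopoietic stem cells kept cells with Sca-1, c-Kit and CD150 on their surface and without CD48 or lineage markers.

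The HET group (3 libraries, numbered 1, 3 and 4) came from c-Myc fl/+ mice that also carried Mx1-Cre, a transgene whose promoter responds to interferon and expresses Cre recombinase in many cell types besides stem cells. Deletion of the floxed Myc allele was induced with 3 intraperitoneal injections of poly(I:C), a double-stranded RNA analog, at 6 mg/kg. The WT group (3 libraries, also numbered 1, 3 and 4) had the genotype c-Myc fl/+ without Cre, so both groups carried a floxed allele. Whether WT mice also received injections is not stated separately. All mice were female and aged 8 weeks, and no label says whether a library came from 1 mouse or from several. The HET libraries are called KO in their titles.

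Neutrophils store antimicrobial proteins in granules that are filled in sequence as the cell matures in the marrow. Primary (azurophil) granules are made first, at the promyelocyte stage, and hold myeloperoxidase and a group of related serine proteases. Secondary (specific) and tertiary (gelatinase) granules follow in later stages, when transcription of the primary granule genes has largely ceased. Stem cells are several divisions upstream of both stages, and transcripts of primary granule genes are known to appear in early myeloid progenitors. Of the members, Mpo, Elane, Prtn3 and Ctsg are called early below. Camp, Ngp, Ltf and Lcn2, with the cytosolic S100a8 and S100a9, are called late.

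Total counts ran between 4627452 and 9886223 in HET libraries and between 4249490 and 5600856 in WT libraries. Myc, the targeted gene, measured 293.8, 386.7 and 372.0 CPM (read counts relative to the scaled size of each library) in HET 1, 3 and 4, against 447.4, 427.4 and 541.8 CPM in WT 1, 3 and 4. The HET values were all below the WT values, although the counts cover the whole gene and not only its floxed part. The log2 fold change of Myc, HET over WT, was -0.43 and did not pass edgeR's quasi-likelihood test over all genes (adjusted p = 0.312). Of all genes tested, 5.64% likewise had every HET value below every WT value. Kit, Slamf1 and Ly6a, named as genes of the sort markers, were read in all 6 libraries. The 22 tested genes of stem cell identity and sort markers summed to between 5605 and 6736 CPM in HET and between 5732 and 6199 CPM in WT. Cd48, which is in this list although the sort excluded it, measured 3.67, 8.29 and 8.96 CPM in HET 1, 3 and 4, against 3.25, 2.74 and 1.67 CPM in WT 1, 3 and 4.

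The region before the RefSeq start of each gene was searched for 4 motifs of factors known in myeloid cells. Promoters are shown for the pair of motifs whose counts differed most between early and late members. RefSeq's promoter table for GRCm38.p6 held all 10 members, and the 250 bases before each start were searched on both strands. These starts differ in part from the ends of the GENCODE gene spans given below. The windows of Prtn3 and Lcn2 lie within those spans, those of Ctsg and S100a9 outside, and the others partly within. In the 4 early promoters the capitals mark AGGAAGT, a form of the site bound by ETS factors such as PU.1, a regulator of myeloid genes.
Mpo, chr11:87793534-87793783, plus strand: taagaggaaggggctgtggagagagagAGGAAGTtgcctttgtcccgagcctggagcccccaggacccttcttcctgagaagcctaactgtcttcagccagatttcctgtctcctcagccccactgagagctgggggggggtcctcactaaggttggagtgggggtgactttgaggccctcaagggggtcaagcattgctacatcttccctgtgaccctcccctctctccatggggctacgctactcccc
Elane, chr10:79886062-79886311, plus strand: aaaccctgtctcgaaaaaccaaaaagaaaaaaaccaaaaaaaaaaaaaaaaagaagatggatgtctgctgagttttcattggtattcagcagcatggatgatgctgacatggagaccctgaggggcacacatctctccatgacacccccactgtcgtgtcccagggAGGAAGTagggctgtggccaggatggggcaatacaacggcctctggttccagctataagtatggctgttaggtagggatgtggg
Prtn3, chr10:79879417-79879666, plus strand: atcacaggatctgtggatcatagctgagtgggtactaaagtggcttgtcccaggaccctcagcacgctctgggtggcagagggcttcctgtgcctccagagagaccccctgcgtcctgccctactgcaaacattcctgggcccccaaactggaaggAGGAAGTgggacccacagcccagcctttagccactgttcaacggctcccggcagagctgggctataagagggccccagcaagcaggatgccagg
Ctsg, chr14:56102575-56102824, minus strand: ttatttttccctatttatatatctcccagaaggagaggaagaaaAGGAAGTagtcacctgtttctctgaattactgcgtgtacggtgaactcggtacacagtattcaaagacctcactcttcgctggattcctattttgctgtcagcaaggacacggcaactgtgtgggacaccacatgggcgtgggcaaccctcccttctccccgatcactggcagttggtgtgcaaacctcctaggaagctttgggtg

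The letters AGGAAGT, or their reverse complement, were present in all 4 early promoters and in 1 of the 6 late ones, S100a8. They were found in 7.69% of all 32851 windows of this length in the table. The first base of the match lay 223 bases before the start in Mpo, 84 in Elane, 94 in Prtn3 and 206 in Ctsg. The motifs were chosen after these sequences had been read, so their counts are a description only. In the promoters of Ngp and S100a9, the late members with the highest levels in their granule and cytosolic classes, the capitals mark TTNNGNAA or its reverse complement, a loose form of the site bound by C/EBP factors.
Ngp, chr9:110419558-110419807, plus strand: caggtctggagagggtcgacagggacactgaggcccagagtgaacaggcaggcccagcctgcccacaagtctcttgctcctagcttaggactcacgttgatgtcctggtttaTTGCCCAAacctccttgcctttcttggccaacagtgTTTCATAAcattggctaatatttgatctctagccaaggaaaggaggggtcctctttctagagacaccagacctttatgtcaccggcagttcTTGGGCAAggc
S100a9, chr3:90695722-90695971, minus strand: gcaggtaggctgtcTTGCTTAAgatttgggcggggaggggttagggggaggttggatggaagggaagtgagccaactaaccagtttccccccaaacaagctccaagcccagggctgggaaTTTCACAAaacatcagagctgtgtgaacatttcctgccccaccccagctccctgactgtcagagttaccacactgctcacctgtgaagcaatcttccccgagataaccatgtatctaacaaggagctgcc

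TTNNGNAA was present in 5 of the 6 late promoters, all but Camp, and in 0 of the 4 early ones, against 36.8% of all windows. The MYB-type letters CAACNG were present in 3 of 4 early and 2 of 6 late promoters (29.3% of all windows). The RUNX-type letters TGTGGT were present in 1 of 4 early and 1 of 6 late promoters, and in 4614 of the 32851 windows. No match overlapped AGGAAGT, and in Lcn2 a CAACNG match overlapped the TTNNGNAA match. Which factors bind there was not measured.

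The genes lie in small groups on the genome (GENCODE M21, GRCm38). Prtn3 (chromosome 10, 79874476 to 79883174, plus strand) ends 3.07 kb before Elane (79886247 to 79888215, plus strand). S100a8 (chromosome 3, 90668978 to 90670035, plus strand) and S100a9 (90692632 to 90695721, minus strand) are 22.6 kb apart. Camp (109847379 to 109849617, minus strand), Ngp (110419747 to 110423012, plus strand) and Ltf (111019271 to 111042767, plus strand) follow each other on chromosome 9, 570.1 kb and 596.3 kb apart. Mpo is on chromosome 11 (87793581 to 87804413, plus strand), Ctsg on chromosome 14 (56099881 to 56102574, minus strand) and Lcn2 on chromosome 2 (32384633 to 32388252, minus strand). All 10 are annotated as protein-coding genes, and the counts cover whole genes.

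The late members varied widely between libraries of the same genotype, and the same libraries were highest and lowest for all 6. WT 3 had the highest and HET 1 the next highest level of each of the 6 late genes, and HET 3 and WT 4 had the 2 lowest levels of each. The order within the lowest pair, and that of HET 4 and WT 1 between, changed from gene to gene. The 6 genes together summed to 268.3, 18.1 and 153.7 CPM in HET 1, 3 and 4, against 125.9, 494.9 and 18.1 CPM in WT 1, 3 and 4, so that the highest library held 27.3 times the lowest. In bulk RNA, a smaller number of cells that make a transcript and less of it per cell cannot be told apart.

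Ngp encodes neutrophilic granule protein, a relative of the cathelicidins. It measured 79.3, 2.18 and 44.8 CPM in HET 1, 3 and 4 (799, 10 and 230 counts), against 48.0, 116.9 and 1.67 CPM in WT 1, 3 and 4 (266, 639 and 7 counts). Each group held high libraries and a library near the bottom of the range, and the groups overlapped. Camp, the cathelicidin itself, precursor of an antimicrobial peptide, measured 16.9, 1.74 and 11.3 CPM in HET 1, 3 and 4, against 6.31, 36.6 and 5.49 CPM in WT 1, 3 and 4. Ltf encodes the iron-binding protein lactoferrin and measured 38.6, 1.96 and 30.0 CPM in HET 1, 3 and 4, against 19.3, 47.6 and 2.38 CPM in WT 1, 3 and 4. Lcn2 encodes lipocalin 2, which binds bacterial siderophores, and measured 14.7, 1.09 and 6.63 CPM in HET 1, 3 and 4, against 7.76, 32.9 and 2.62 CPM in WT 1, 3 and 4. In all 3 genes HET 3 was the lowest library and WT 3 the highest, and the groups overlapped.

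S100a8 and S100a9 encode the subunits of calprotectin, a calcium- and zinc-binding complex that is abundant in the neutrophil cytosol. S100a9 measured 92.4, 6.98 and 50.9 CPM in HET 1, 3 and 4 (932, 32 and 261 counts), against 34.3, 203.4 and 5.25 CPM in WT 1, 3 and 4 (190, 1112 and 22 counts). S100a8 measured 26.5, 4.14 and 10.1 CPM in HET 1, 3 and 4, against 10.3, 57.4 and 0.715 CPM in WT 1, 3 and 4. The WT 4 value of S100a8 rests on 3 counts, with an exact 95% interval for counting error of 0.148 to 2.09 CPM, while WT 3 had 314 counts. WT 4 was the lowest library of both genes and WT 3 the highest. The ratio of S100a9 to S100a8 in CPM was 3.49, 1.68 and 5.02 in HET 1, 3 and 4, against 3.33, 3.54 and 7.33 in WT 1, 3 and 4. S100a9 exceeded S100a8 in every library.

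**Figure D1:**
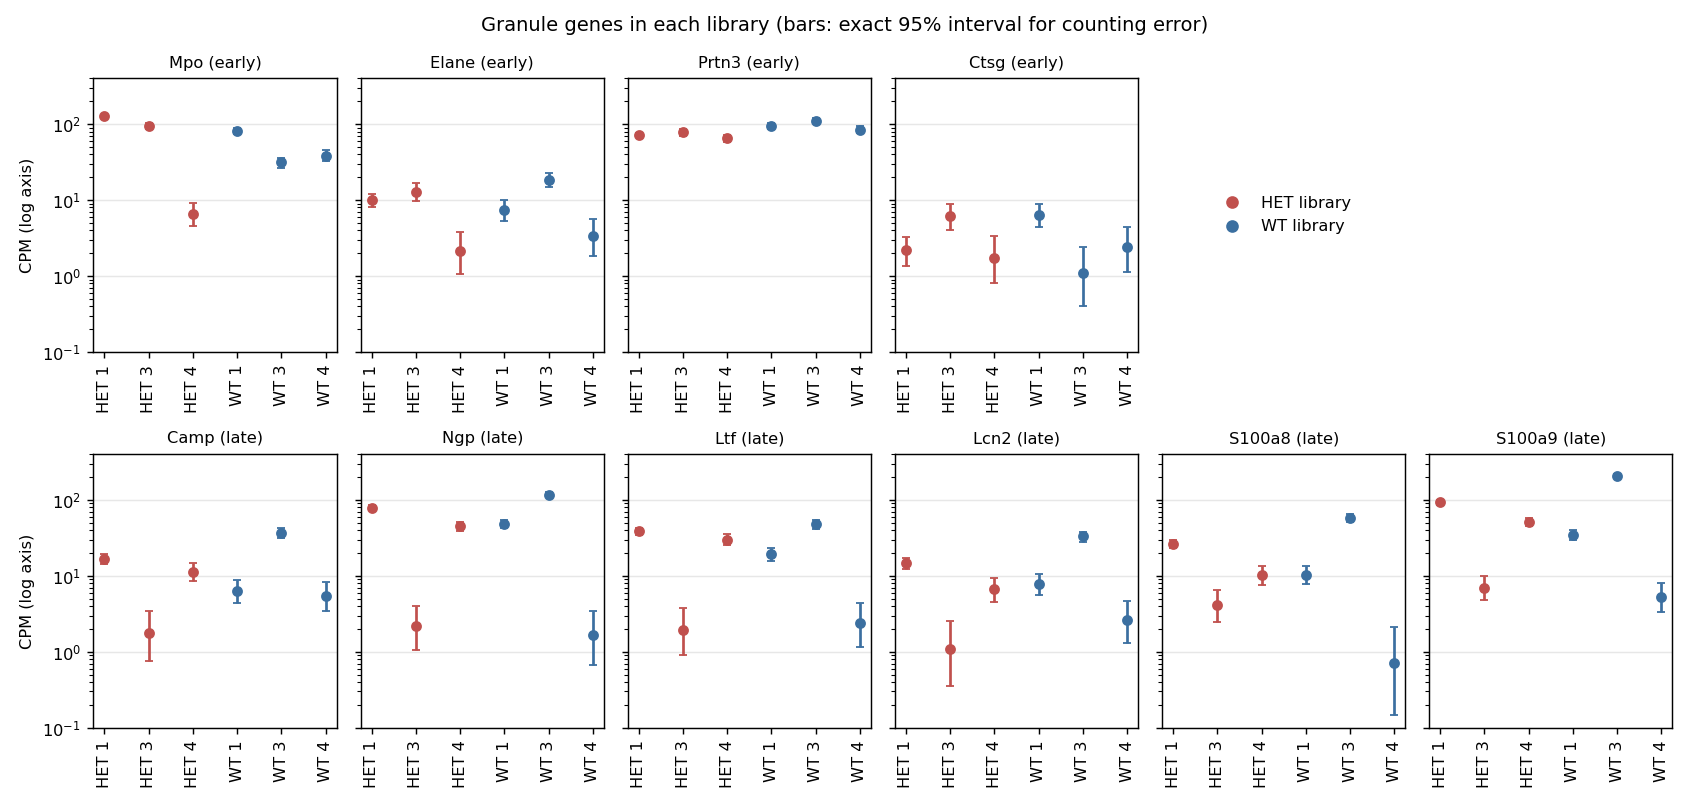
CPM on a log axis of each granule gene in the 6 libraries, HET left of WT, with early genes in the upper row and late genes in the lower; bars are exact 95% intervals that cover counting error only. All 6 late genes peak in WT 3 and are lowest in HET 3 and WT 4, while Prtn3 stays between 65.3 and 110.9 CPM.

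The early members did not share this pattern. Mpo encodes myeloperoxidase, the enzyme that makes hypochlorous acid. It measured 126.2, 95.3 and 6.63 CPM in HET 1, 3 and 4 (1272, 437 and 34 counts), against 82.4, 31.3 and 38.6 CPM in WT 1, 3 and 4 (457, 171 and 162 counts). HET 3, which was among the lowest libraries for every late gene, had the next to highest Mpo level, and HET 4 had the lowest. Elane, neutrophil elastase, measured 10.02, 12.9 and 2.14 CPM in HET 1, 3 and 4, against 7.40, 18.5 and 3.34 CPM in WT 1, 3 and 4. Ctsg, cathepsin G, measured 2.18, 6.11 and 1.75 CPM in HET 1, 3 and 4, against 6.31, 1.10 and 2.38 CPM in WT 1, 3 and 4. The Ctsg values rest on 6 to 35 counts a library. Both genes had overlapping groups, and WT 3 was the highest library for Elane and the lowest for Ctsg.

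Prtn3, which encodes proteinase 3, had the smallest spread of the 10 members. It measured 72.0, 77.9 and 65.3 CPM in HET 1, 3 and 4 (726, 357 and 335 counts), against 94.9, 110.9 and 84.9 CPM in WT 1, 3 and 4 (526, 606 and 356 counts). Its highest library was 1.70 times its lowest, and its 3 HET values were all lower than its 3 WT values. HET 4 was the lowest library of Mpo, Elane and Prtn3. Summed over the 4 early genes, the libraries held 210.4, 192.1 and 75.8 CPM in HET 1, 3 and 4, against 191.1, 161.7 and 129.3 CPM in WT 1, 3 and 4, with the highest 2.78 times the lowest. The ratio of Mpo to Prtn3 in CPM was 1.75, 1.22 and 0.101 in HET 1, 3 and 4, against 0.869, 0.282 and 0.455 in WT 1, 3 and 4. This ratio is not corrected for exonic length, which is 3424 bases for Mpo and 1732 for Prtn3. Per kilobase of exonic length, Prtn3 exceeded Mpo in every library.

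Reads of some early genes may be shared with overlapping genes, since no source used here gives the strand setting of the counts. In GENCODE M21, 159 exonic bases of Prtn3, 9.18% of its exonic length, lie on the opposite strand of exons of Plppr3. That gene, named Lppr3 in the count table, measured 162.8, 185.1 and 171.9 CPM in HET 1, 3 and 4, against 125.0, 125.3 and 160.7 CPM in WT 1, 3 and 4. It was higher in every HET library than in any WT library, the opposite of Prtn3. An antisense gene, Gm11505, covers 512 exonic bases of Mpo, 14.95% of its exonic length. The part of these overlaps in the counts was not tested, and the other 8 members share no exonic bases with another annotated gene.

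Per kilobase of exonic length, S100a9 had the highest mean level over the 6 libraries, 125.6 CPM per kb. Prtn3 followed with 48.7, Ngp with 39.9, S100a8 with 26.2, Mpo with 18.5, Camp with 17.2, Elane with 9.19, Ltf with 6.75, Lcn2 with 4.18 and Ctsg with 3.20 CPM per kb. The library ranges of every neighbouring pair in this order overlapped. The leading gene changed with the library. S100a9 had the highest level per kb in HET 1, HET 4, WT 1 and WT 3, with 177.1, 97.4, 65.7 and 389.7 CPM per kb. In HET 3 and WT 4 it was Prtn3, with 45.0 CPM per kb in HET 3 and 49.0 CPM per kb in WT 4.

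The balance of early and late members differed by library. The mean log2 CPM (with a prior count of 2) of the 6 late genes minus that of the 4 early genes was 0.68, -3.29 and 1.5003 in HET 1, 3 and 4, against -0.63, 1.91 and -2.23 in WT 1, 3 and 4. Late genes exceeded early genes in HET 1, HET 4 and WT 3 and lay below them in HET 3, WT 1 and WT 4. The group means of this difference were -0.37 ± 2.56 in HET and -0.32 ± 2.09 in WT (SD, n = 3 each), a gap far smaller than the spread within either group.

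**Figure D2:**
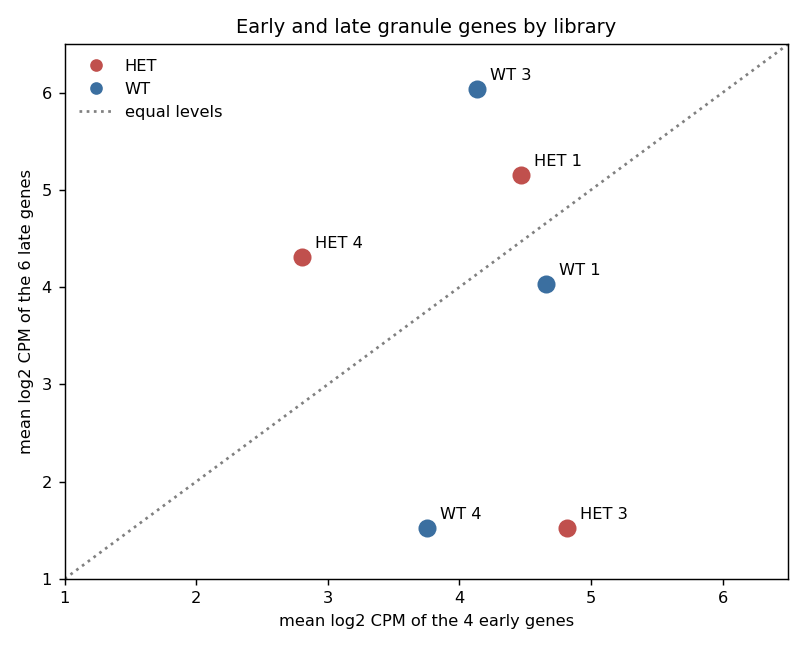
Mean log2 CPM of the 6 late genes (vertical) against that of the 4 early genes (horizontal), 1 point per library; the dotted line marks equal levels. The late level spans 1.52 to 6.04 and the early level 2.80 to 4.82, with HET and WT libraries on both sides of the line.

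The spread within a genotype was large for these transcripts. The pooled within-group standard deviation of log2 CPM was 2.88 for Ngp, 2.28 for S100a9, 2.24 for S100a8, 2.19 for Ltf, 1.74 for Lcn2 and 1.55 for Camp. Over all 10869 genes tested the median was 0.25 and the 95th percentile 0.85. In descending order of this spread Ngp, S100a9, S100a8 and Ltf ranked 2, 4, 5 and 6 of all genes tested, Lcn2 ranked 23 and Camp 59. Among the early genes Mpo had 1.71 and ranked 25, Elane had 1.24 and ranked 184, and Ctsg had 0.996 and ranked 353. Prtn3, with 0.16, lay below the median of all genes. A range of at least 10-fold on this scale was reached by 7 of the 10 members (Mpo and the 6 late genes) and by 1.65% of all genes tested. The biological coefficient of variation that edgeR fitted was 134% for Ngp and 13.9% for Prtn3, against 20.7% in common over all genes.

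**Figure D3:**
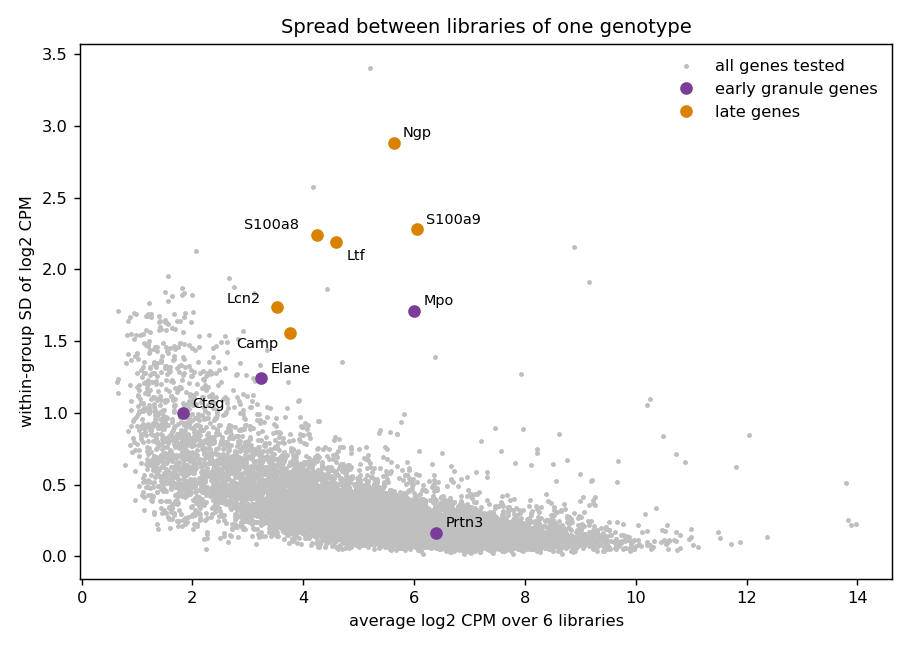
Within-group standard deviation of log2 CPM (vertical) against average log2 CPM (horizontal) for the 10869 genes tested, in grey, with early granule genes in purple and late genes in orange. The late genes, Mpo, Elane and Ctsg all lie above 0.85, the 95th percentile of all genes, and Prtn3, at 0.16, lies below the median of 0.25.

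The comparison of HET with WT asks whether these transcripts differed where deletion of a Myc allele had been induced. None of the 10 members passed an adjusted p of 0.05 in edgeR's quasi-likelihood test over all genes, in which 0.258% of genes were called. At an unadjusted p under 0.05 there was 1 member, Prtn3, against 5.22% of all genes, and DESeq2 and limma-voom also called 0 members. The p-values measure the spread between these libraries, whose sources are not stated to be separate animals.

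Prtn3 averaged 71.7 ± 6.29 CPM in HET and 96.9 ± 13.1 CPM in WT (SD, n = 3 each). Its log2 fold change was -0.44 ± 0.16 (SE), with a 95% interval of -0.76 to -0.11 and an edgeR adjusted p of 0.659. A two-sided exact permutation test on its CPM returned p = 0.1, which is as small as a design of 3 and 3 libraries can give. Prtn3 was the only member whose groups did not overlap, 1 of 10, while 10.3% of all genes tested did not overlap, 5.64% with HET lower. Its log2 fold change stayed between -0.52 and -0.33 when any 1 library was left out. Without WT 3, however, 0 members had an unadjusted p under 0.05 in edgeR's test. The share of non-overlapping members is thus at the level of the background.

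For the other 9 members the intervals were too wide to set a direction. Mpo averaged 76.0 ± 62.1 CPM in HET and 50.8 ± 27.7 CPM in WT (SD, n = 3 each), and its log2 fold change was 0.59 with a 95% interval of -2.38 to 3.56 (edgeR adjusted p = 0.995). Ngp averaged 42.1 ± 38.6 CPM in HET and 55.5 ± 58.0 CPM in WT, a log2 fold change of -0.38 with an interval of -4.69 to 3.93. S100a9 averaged 50.1 ± 42.7 CPM in HET and 81.0 ± 107 CPM in WT, a log2 fold change of -0.67 with an interval of -4.80 to 3.46. Each interval spans changes of several-fold in both directions. Log2 fold changes of the remaining members were -0.23 for Elane, 0.00 for Ctsg, -0.66 for Camp, 0.04 for Ltf, -0.90 for Lcn2 and -0.71 for S100a8, with standard errors from 0.67 for Elane to 1.47 for S100a8.

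**Figure D4:**
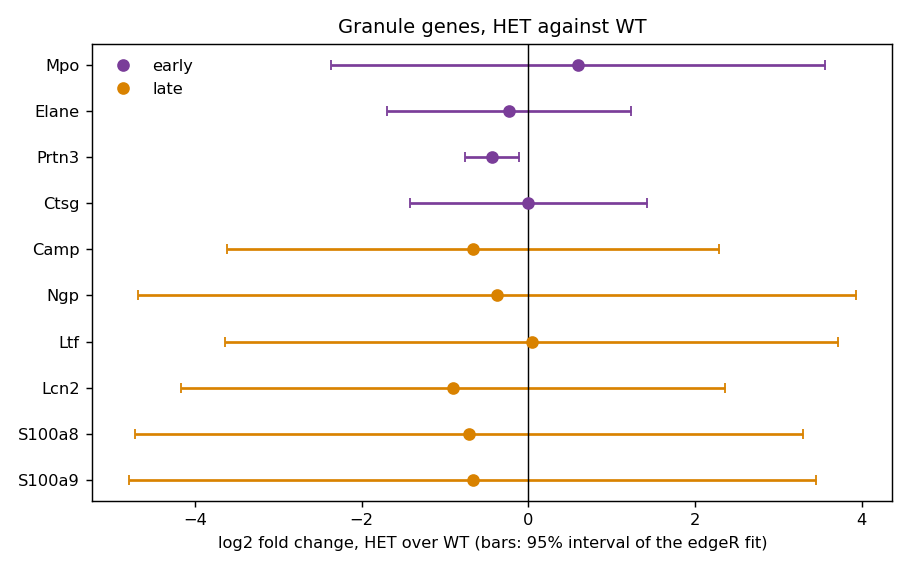
Log2 fold change of each member, HET over WT, with the 95% interval of the edgeR fit; early genes are purple and late genes orange. Prtn3, at -0.44, has the narrowest interval, and those of the other 9 members include 0.

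The median log2 fold change was -0.12 over the 4 early genes, -0.52 over the 4 late granule genes and -0.69 over S100a8 and S100a9, against 0.00 over all genes tested. The median over all 6 late genes was -0.67, and 0.13 with limma-voom on the same libraries, so its sign changed with the method. It also changed with single libraries. Without WT 3, all 6 late genes had positive values with a median of 0.94, and without HET 1 all 6 were negative with a median of -1.39, in neither case with a member called. Without HET 3 the early median was -0.57, and without WT 1 it was 0.26.

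Other granule genes were read from lists. Of 17 further genes of primary granules and promyelocytes, 15 were tested and 0 were called by edgeR, with a median log2 fold change of -0.04 (0.00 over all genes tested). Gstm1, a glutathione transferase, measured 42.4, 64.6 and 95.5 CPM in HET 1, 3 and 4, against 94.0, 89.5 and 101.1 CPM in WT 1, 3 and 4 (adjusted p = 0.950). Prss57, a serine protease related to elastase, measured 3.27, 4.36 and 4.68 CPM in HET 1, 3 and 4, against 1.98, 1.65 and 2.15 CPM in WT 1, 3 and 4, without overlap and without passing (adjusted p = 0.995). Srgn, the proteoglycan core protein serglycin, and Calr, calreticulin, were the most abundant of this list, and neither varied by more than 1.48-fold between libraries. Cd63, a granule membrane protein, and Nkg7, a granule protein of cytotoxic and myeloid cells, were not called either (log2 fold changes -0.25 and 0.49, edgeR adjusted p = 0.995 each). Ms4a3, a gene of granulocyte and monocyte progenitors that was picked after its values were seen, had 0 counts in HET 4, where 3 counts correspond to 0.585 CPM, and 3.37 and 3.27 CPM in HET 1 and 3, against 3.07, 5.12 and 1.91 CPM in WT 1, 3 and 4. HET 4 was the lowest library of Ms4a3, as of Mpo and Elane, but the list was not uniform. In the same list HET 4 was the highest library of Prss57 and the next to highest of Gstm1.

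Of 31 further genes of secondary and tertiary granules, 10 were tested, and 0 were called, with a median of 0.00. Chil3, a chitinase-like protein of myeloid cells, is named because its profile was the nearest to that of the late members, and measured 12.8, 1.53 and 5.26 CPM in HET 1, 3 and 4, against 7.76, 19.8 and 0.715 CPM in WT 1, 3 and 4. Cd177, a neutrophil surface protein picked after its values were seen, had 69, 3 and 17 counts in HET 1, 3 and 4, against 3, 32 and 0 counts in WT 1, 3 and 4. Both had low values in HET 3 and WT 4, like the late members, and Cd177 was low in WT 1 too. Since both were named for their values, this likeness is a description only. WT 3 was the highest library of 2 of the 10 tested genes of this list, and Itgam and Adam8 were highest in HET 3. Itgam, the integrin CD11b, measured 16.7, 29.0 and 13.1 CPM in HET 1, 3 and 4, against 11.9, 6.95 and 10.02 CPM in WT 1, 3 and 4, without overlap (log2 fold change 1.02 ± 0.36 SE, edgeR adjusted p = 0.630). Pglyrp1, a peptidoglycan recognition protein, Adam8, a metalloprotease, and Il1r2, a decoy receptor for interleukin 1, had log2 fold changes of -0.88, 1.69 and -1.23 with edgeR adjusted p-values of 0.980, 0.958 and 0.995. The most abundant genes of this list, Itgb2 and Anxa1, varied by 1.52-fold and 1.43-fold between libraries. Among genes listed but too low to be tested, Wfdc21, also picked for its values, had 14, 0 and 1 counts in HET 1, 3 and 4, against 4, 37 and 0 counts in WT 1, 3 and 4.

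Among 12 tested regulators of granulocyte development, 1 fell and 0 rose in HET, where 0.221% of all genes were called lower. The gene that fell was Cebpb, a C/EBP factor of myeloid cells, with 37.3, 42.5 and 29.0 CPM in HET 1, 3 and 4, against 116.7, 78.9 and 80.4 CPM in WT 1, 3 and 4 (log2 fold change -1.34 ± 0.20 SE, edgeR adjusted p = 0.00207). Cebpa, the C/EBP factor of early granulocyte commitment, measured 8.83, 15.5 and 8.38 CPM in HET 1, 3 and 4, against 7.58, 6.59 and 9.06 CPM in WT 1, 3 and 4. Gfi1, a repressor needed for neutrophil formation, measured 10.3, 26.8 and 20.7 CPM in HET 1, 3 and 4, against 10.6, 16.6 and 10.97 CPM in WT 1, 3 and 4. Csf3r, the G-CSF receptor, picked after its values were seen, measured 124.3, 166.8 and 113.0 CPM in HET 1, 3 and 4, against 97.6, 123.9 and 181.7 CPM in WT 1, 3 and 4. Runx1 and Myb, the most abundant regulators, varied by 1.35-fold and 1.15-fold between libraries, and Csf2rb, a cytokine receptor chain, had a log2 fold change of 0.39 (edgeR adjusted p = 0.980). None of Cebpa, Gfi1 and Csf3r had the highest and lowest libraries of the late genes. Of the 5 tested genes of other S100 proteins, 0 were called, and their sum differed by no more than 1.26-fold between libraries. Single genes of this list varied more, by up to 2.24-fold for S100a6, against 38.8-fold for S100a9 and 80.3-fold for S100a8.

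Genes of other cell types and states were summed in each library beside these values. Monocyte and macrophage markers (10 of 16 tested) summed to 67.0, 51.5 and 47.4 CPM in HET 1, 3 and 4, against 68.4, 41.0 and 46.5 CPM in WT 1, 3 and 4, with WT 3 the lowest. Single genes of this list varied more than the sum. On the log2 CPM scale 4 of the 10 had a range of at least 10-fold, against 1.65% of all genes tested. Erythroid markers (10 of 15 tested) ran between 708.8 and 794.7 CPM in HET and between 806.3 and 924.4 CPM in WT, most of it from Car2, which stem cells also express. The sum of the stem cell and sort marker list, which also holds Cd34, Flt3 and Cd48, was lowest in HET 1 and WT 3. It was 5605 CPM in HET 1 and 5732 CPM in WT 3, the libraries with the highest late levels. Not every gene of the list followed the sum, and Cd34 was highest in HET 1, at 281.5 CPM. Megakaryocyte and platelet genes (11 of 12 tested) showed 0 calls and a median of 0.41 in log2 fold change, and Itga2b, the integrin CD41, measured 560.5, 364.0 and 390.5 CPM in HET 1, 3 and 4, against 316.3, 288.5 and 263.3 CPM in WT 1, 3 and 4 (edgeR adjusted p = 0.132). Eosinophil, basophil and mast cell genes (3 of 13 tested) had a median of 0.71 and 0 calls. Among them Cpa3, a mast cell carboxypeptidase, had 44, 15 and 16 counts in HET 1, 3 and 4, against 2, 1 and 0 counts in WT 1, 3 and 4, without overlap. Its fitted log2 fold change, which depends on the prior count at such low counts, was 4.07 with a 95% interval of 1.96 to 6.19 (edgeR adjusted p = 0.149). B lineage (2 of 13 tested) and T and NK markers (4 of 14) summed to at most 147.3 and 26.7 CPM in HET and 109.5 and 32.4 CPM in WT. Fcgr1, a receptor of monocytes and macrophages picked after its counts were seen, had at most 7 counts in HET libraries and 10 in WT libraries and was too low to be tested. It does not stand for its list, in which other genes were read at higher levels. Cd68 measured 13.8 to 23.2 CPM in HET and 13.8 to 16.3 CPM in WT. Ctss measured 8.29 to 12.0 CPM in HET and 6.22 to 15.0 CPM in WT.

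A list of 22 genes of mitosis, chosen after the values were seen, summed to 1948, 937.3 and 1414 CPM in HET 1, 3 and 4, against 1449, 1690 and 1153 CPM in WT 1, 3 and 4. By this sum, HET 3 and WT 4 were its lowest libraries and HET 1 and WT 3 its highest, as for the late granule genes. The sum had a 2.08-fold range. Single genes did not all follow it. WT 3 was the highest library of 5 of the 22 genes, while Bub1 was highest in WT 1 and Cenpe in HET 4. The part of the mitosis genes in the late granule levels was not tested.

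**Figure D5:**
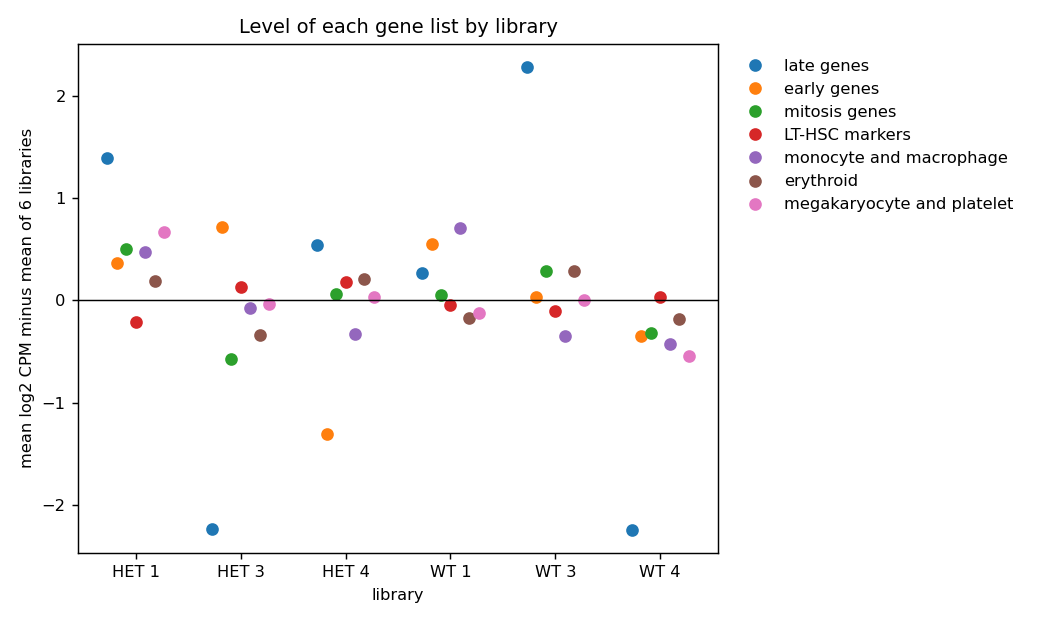
Mean log2 CPM of each gene list in each library, relative to its mean over the 6 libraries, HET left of WT. The late granule genes span -2.24 to 2.28, and each of the other lists shown spans a narrower range, with mitosis genes between -0.57 and 0.50.

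The genes whose library profile was nearest to the mean profile of the late members were found among 10043 other genes of at least 2 mean log2 CPM, by the root mean square difference of centred log2 CPM over the 6 libraries. They included Chil3 (0.41), Ska1 (0.85), Ptplb (0.97) and Cybb (1.02 log2 units). Chil3 and Cybb, the catalytic subunit of the phagocyte NADPH oxidase, were on the granule lists, and Ska1 encodes a protein of kinetochores. For the early mean profile the nearest were Mterf2 (0.21), Sh2b2 (0.24), Tnfaip1 (0.24), Nmrk1 (0.24) and Alg6 (0.24 log2 units), of which none was on a granule list. Each member was also set against the mean of its own class, taken over the other members without it. The difference was 0.26 (S100a9) to 0.92 (Ngp) among late genes and 0.83 (Prtn3) to 1.06 (Mpo) among early genes. These ranges overlapped, with Camp (0.90) and Ngp farther from their class mean than Prtn3, Elane (0.86) and Ctsg (0.896) were from theirs. The differences are not scaled to the size of the profiles. The late mean profile spanned -2.24 to 2.28 log2 units and the early one -1.30 to 0.71. An equal difference is therefore a larger part of the early profile.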

How the data were processed

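The authors deposited raw read counts per gene for 6 RNA libraries. Per the submitters' processing notes, STAR 2.5.2b, FastQC, limma, edgeR and mm10 were used, in roles that are not stated. No source used here gives the read counter, annotation or strand setting. Protocol fields attached to the samples describe another study and were not used.

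Genes were filtered with filterByExpr (910 of 11779 removed), scaled by TMM and tested with edgeR 4.0.16 (quasi-likelihood, robust) in R 4.3.3, HET against WT, with Benjamini-Hochberg adjustment over the 10869 genes tested and a threshold of 0.05. CPM uses the TMM-scaled library size, and log2 CPM a prior count of 2. DESeq2 1.42.0 and limma 3.58.1 (voom) were alternatives. Scripts were tested on simulated data. A count of 3 corresponds to 0.298 to 0.715 CPM. Intervals on single counts are exact 95% binomial intervals and cover counting error only.

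Members and lists were chosen with earlier results of these data known. Named list genes are up to 4 with the smallest p, 2 with the highest level and those called, beside genes of the sort markers, genes nearest in profile, and genes said to be picked after their values were seen. Replicate numbers were not used to pair the samples in the main test. Same-numbered libraries did not all deviate together, but with 3 libraries per group this cannot exclude a pairing. Of the 5 genes nearest to the late profile, 1 is not reported here.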

Additional observations from a re-analysis of the deposited data

How the results depend on the processing

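In none of the alternative fits was a granule gene called. The lowest adjusted p was 0.372, for Prtn3 under limma-voom with library weights, and Prtn3 ran between -0.52 and -0.33 with each library left out. Signs of other members changed. Mpo was -0.60 and Ltf -0.11 with weighted voom. Ctsg was 0.015 with upper quartile scaling, 0.0096 without a filter, 0.014 with DESeq2, 0.0135 with voom and 0.15 with weighted voom. Ngp, S100a8 and S100a9 were 0.13, 0.48 and 0.12 with voom. With the replicate block, Ctsg, Ngp, S100a8 and S100a9 were 0.038, 0.13, 0.23 and 0.33. The median of the 6 late genes, -0.67, was 0.13 with voom and 0.18 with the replicate block, and that of all 10 members, -0.41, was 0.07 and 0.08. Leaving out each library gave -0.0086 to 1.13 for Mpo, -0.64 to 0.62 for Elane, -0.72 to 0.93 for Ctsg, -1.30 to 0.78 for Camp, -1.24 to 0.76 for Ngp, -0.53 to 1.10 for Ltf, -1.89 to 0.54 for Lcn2, -1.68 to 1.29 for S100a8 and -1.48 to 1.33 for S100a9.

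The count of genes called among all tested, 28, was 57 with DESeq2, 15 at a threshold of 0.01, 49 with the replicate block, and 10 (without HET 4) to 68 (without HET 1) with a library left out, with 11 without WT 1. Same-numbered libraries correlated in their deviations at 0.11, -0.04 and 0.07. The stem cell list had 1 gene called, Txnip, without a filter, with DESeq2, with weighted voom and at a threshold of 0.1, and 0 to 1 with a library left out. The megakaryocyte list had 1 with DESeq2 and with the replicate block, and 0 to 1 with a library left out. List medians with a library left out were -0.36 to 0.37 for monocyte genes and 0.16 to 1.29 for eosinophil, basophil and mast cell genes. The causes were not tested. Values at a few counts, such as S100a8 in WT 4, are limited by depth.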
